A study of Mus musculus with 6 samples.

Results

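Mitosis is run by a set of proteins that most dividing cells make late in the cycle, in G2 phase and mitosis (G2/M), and destroy as they divide. Cyclin-dependent kinase 1 with cyclins A and B starts mitosis, the kinetochore proteins tie chromosomes to the spindle, the checkpoint holds the cell until every chromosome is tied, and the anaphase-promoting complex (APC/C) then marks cyclin B and securin for destruction. Many of these genes share a promoter element, the cell cycle genes homology region (CHR), and are known to be kept low in resting cells and to peak together before division. Pluripotent stem cells divide fast and express the set at a high level.

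The 50 genes described here are a list of mitotic spindle, kinetochore and G2/M genes, taken by name. The list was chosen with earlier results of these data known. All 50 were found by symbol among the 50686 gene identifiers of the count files, and all 50 passed the filter on low counts that left 16729 genes for testing. They were divided by function into 8 groups. Embryoid bodies of induced pluripotent stem cells (iPSCs) reprogrammed from mouse gingival fibroblasts had been treated with retinoic acid to guide them toward immature mesenchymal cells and then attached to gelatin-coated dishes. Loading with intermittent compressive force (ICF) followed, at 1.5 g per square centimetre and 0.23 Hz for 24 h in serum-free medium (3 samples), and controls of the same cells in the same treatment were left unloaded (3 samples). The labels give a donor number from 1 to 3 to each sample of a group, used here as the replicate number, whereas the methods speak of independent experiments. Feeder cells had been removed by selective trypsin treatment before embryoid bodies were formed. No gene was altered by design.

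The counts on genes summed to 28711166 to 34194413 per library, and the mean count of a member over the 6 samples lay between 1078 (Cdc25c) and 29660 (Top2a). The library of ICF replicate 3 stood apart: 89.0% of its nonzero counts could be divided by 4. In the other 5 libraries 20.3% to 21.5% could. In ICF replicate 3 20802 genes had a count, where the others had 24340 to 24889. The sum of that library, 28869790, may overstate its number of separate reads, which was not tested. The cells carried the markers of pluripotent cells: the summed level of 10 such markers was 3797 to 4542 CPM (counts scaled to the effective size of each library) in the controls and 3459 to 3846 with ICF. For 10 markers of mesenchyme and fibroblasts, which the feeder cells would share, the sums were 371 to 427 and 445 to 458 CPM. Vim (144.9 to 187.5 CPM) and Pdgfra (170.5 to 182.1 CPM) made up most of these sums. By contrast, Prrx1 was at 2.30 to 3.31 CPM and Postn below 1 CPM. Of these 2 lists, Tdgf1 passed as lower with ICF and Col1a1 and Col3a1 as higher. With the donor number as a replicate block Dppa5a and Utf1 were lower too and Twist1 and Col1a2 higher, and the part of these genes or of cell composition in the results below was not tested. Markers of neuroectoderm, endoderm, and endothelium and blood summed to at most 133, 399.5 and 94.7 CPM in any sample, 2 of 8, 0 of 8 and 4 of 8 of them were under 1 CPM, and of these 3 lists Sox17 passed, as lower. With the block Tubb3 and Tie1 were lower too and Nes, Map2, Gata6, Cxcr4 and Cdh5 higher. Because RNA came from whole constructs, fewer cells in G2/M and less of an RNA in each cell cannot be told apart from these counts. By flow cytometry directly after loading, the paper reports more cells in S phase and a higher proliferative index (S phase and G2/M together) with ICF. It names no change in G2/M alone at that point, and reports more G2/M cells after later culture with serum. Whether the cells sequenced had the same share in G2/M was not tested.

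The promoters of the members shared a short sequence that the choice of the list did not use. RefSeq sequences (GRCm38.p6) of 250 bases before and 50 after the annotated start were matched by symbol for 42 of the 50 genes, 45 promoters in all. For 31 of the 42 genes bases 11 to 50 after the start lay, unbroken, in a GENCODE transcript of the gene, and for 11 they did not, Kif23 and Gtse1 among them, so positions relative to the start are less certain for those. The letters of the CHR, TTTGAA or TTCGAA on either strand, began between 60 bases before and 30 bases after the start in 25 of the 45 promoters (55.6%), against 5.19% of all 32851 promoters and 3.26% of those of the tested genes without the members. In 115 promoters of 96 other mitotic genes, from a list described below, the share was 30.4%, so the element is not particular to the members. The CHR match of Ndc80 began at base 30 and ran past the window. The letters CCAAT, the box bound by the factor NF-Y, occurred at least 2 times on either strand in 53.3% of the 45 promoters. For the other mitotic genes this share was 26.1%, and for all promoters 11.7%. TTCGAA reads the same on both strands, a CHR and a CCAAT match can share at most 1 end base, and CCAAT matches on opposite strands can overlap. Counting only CCAAT matches that do not overlap, a choice made after seeing the data, left 53.3%, 26.1% and 11.5%, and a match is a description of letters, not a bound site. The stretches from 60 bases before to 30 bases after the start are printed 5′ to 3′ for the 10 members that passed the test between ICF and control, because they show which of them carry the element. Capitals mark the CHR letters. The windows lie, in the order printed, at chr9:70421525-70421614 (minus strand), chr2:127831830-127831919 (minus), chr9:61946770-61946859 (minus), chr5:30666826-30666915 (plus), chr1:88277550-88277639 (minus), chr7:80294391-80294480 (plus), chr12:51348170-51348259 (plus), chr2:119618238-119618327 (plus), chr15:85859647-85859736 (plus) and chr9:100643388-100643477 (plus).
Ccnb2: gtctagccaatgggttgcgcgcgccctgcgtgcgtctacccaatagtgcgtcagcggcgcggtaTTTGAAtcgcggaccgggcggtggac
Bub1: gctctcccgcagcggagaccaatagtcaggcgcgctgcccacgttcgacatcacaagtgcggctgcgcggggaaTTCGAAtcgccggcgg
Kif23: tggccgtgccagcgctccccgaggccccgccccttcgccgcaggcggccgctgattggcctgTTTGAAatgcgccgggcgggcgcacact
Cenpa: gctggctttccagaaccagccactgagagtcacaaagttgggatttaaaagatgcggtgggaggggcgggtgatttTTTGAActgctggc
Hjurp: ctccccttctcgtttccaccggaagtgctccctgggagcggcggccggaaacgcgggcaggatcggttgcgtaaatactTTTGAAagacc
Prc1: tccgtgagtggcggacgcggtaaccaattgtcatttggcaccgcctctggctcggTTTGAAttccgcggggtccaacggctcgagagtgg
G2e3: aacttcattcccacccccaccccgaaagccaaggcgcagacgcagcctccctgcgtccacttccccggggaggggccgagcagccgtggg
Nusap1: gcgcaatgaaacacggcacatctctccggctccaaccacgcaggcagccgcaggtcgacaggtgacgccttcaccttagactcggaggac
Gtse1: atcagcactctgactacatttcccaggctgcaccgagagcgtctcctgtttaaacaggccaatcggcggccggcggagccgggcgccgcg
Stag1: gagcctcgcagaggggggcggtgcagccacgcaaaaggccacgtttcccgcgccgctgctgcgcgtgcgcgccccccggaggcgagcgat

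The first 6 of these promoters held the element, within 20 bases of the start, and all of those genes fell with ICF. The other 4, of which 2 fell and 2 rose, had none in this window. Among the 42 genes with a promoter sequence, the median log2 fold change was -0.15 in the 24 with CHR letters that began in the window and -0.15 in the 18 without. Of the 24, 6 passed as lower and 0 as higher (unblocked edgeR), and of the 18, 2 and 2. With the block 12 of the 24 were lower and 0 higher, and 11 and 2 of the 18. These splits were not tested.

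**Figure D1:**
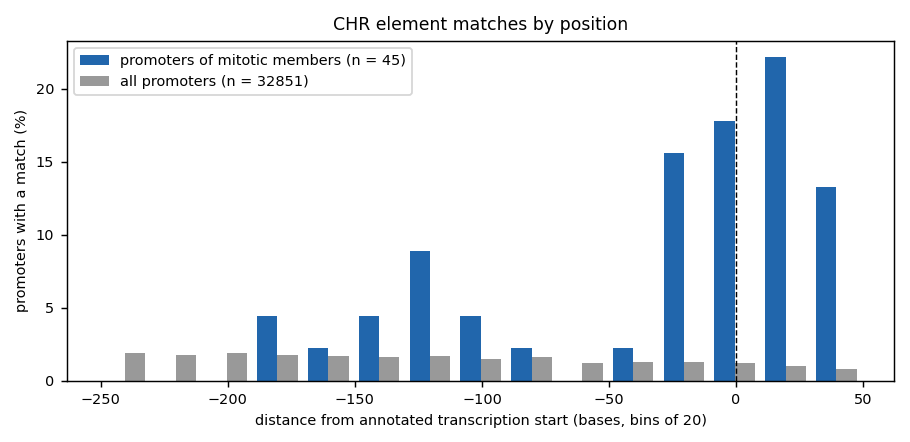
Share of promoters (percent, vertical axis) with a CHR match starting in each 20-base bin by distance from the annotated transcription start (bases, horizontal axis), for the 45 member promoters (blue) and all 32851 promoters (grey). In the bins from -30 to 49 the blue bars reach 13.3% to 22.2%, while no grey bar passes 1.91%.

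Most of the 50 listed genes were slightly lower with ICF, few by much. Among 116 other mitotic genes, described below, 65 were lower and the median was -0.01. Both lists were chosen with earlier results of these data known, so counts among them are not independent of the data. Of the 50 members, 43 had a lower fitted level and 7 a higher one, the log2 fold changes had a median of -0.15 and ran from -0.80 (G2e3) to 0.35 (Stag1), whereas 49.6% of all genes tested were lower and their median was 0.00. In edgeR's quasi-likelihood test 8 members were lower at an adjusted p under 0.05 and 2 were higher, where 4.38% of all genes tested passed as lower and 3.47% as higher. The 8 were G2e3, Kif23, Ccnb2, Nusap1, Bub1, Prc1, Cenpa and Hjurp, and the 2 were Stag1 and Gtse1. At an unadjusted p under 0.05 there were 23 and 2, against 13.2% and 12.4% of all genes. With the donor number as a replicate block, which compares the samples of one number with each other, 27 members were lower and 2 higher, where 15.3% and 14.6% of all genes passed. All 8 and both of the others were among these, and 21 members passed in neither test.

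Sample by sample, the summed level of the 50 genes was 11180, 11450 and 10690 CPM in control replicates 1 to 3 and 10060, 9941 and 9935 CPM in ICF replicates 1 to 3. All 3 ICF sums lay below the lowest control sum. Every ICF sample was below every control sample in 23 members, which holds for 15.7% of all genes tested, and above in 3 (Mad2l1, Gtse1 and Stag1), which holds for 15.6%. In 36 of the 50 (72.0%, against 28.3% of all genes tested) the ICF sample was lower in each of the 3 same-numbered pairs. The count of members past the threshold moved with single libraries: it was 2 lower without control replicate 1, 2 without control replicate 2, 13 without control replicate 3, 3 without ICF replicate 1, 4 without ICF replicate 2 and 6 without ICF replicate 3. The share of all genes lower past the threshold moved too, to 1.46%, 1.26%, 5.45%, 1.7%, 2.05% and 4.52% in these fits. No member was higher past the threshold without control replicate 1 or 2 or ICF replicate 1 or 2 (edgeR, with 2 at an unadjusted p under 0.05 in each of these fits), where 0.636%, 0.5%, 1.06% and 1.36% of all genes were. Without control replicate 3 or ICF replicate 3 there were 2 in each, where 4.25% and 3.73% were. The median of the members stayed between -0.18 and -0.12 in all of these fits. With DESeq2 in place of edgeR 14 members were lower and 2 higher. Of the 29735 genes in that fit, 3.6% and 2.95% passed. These 1071 and 877 genes all lay among the 16729 tested in edgeR, so the shares of those are larger. Of the 6200 tested genes at or above the lowest mean CPM of a member, 499 were lower and 398 higher with DESeq2.

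**Figure D2:**
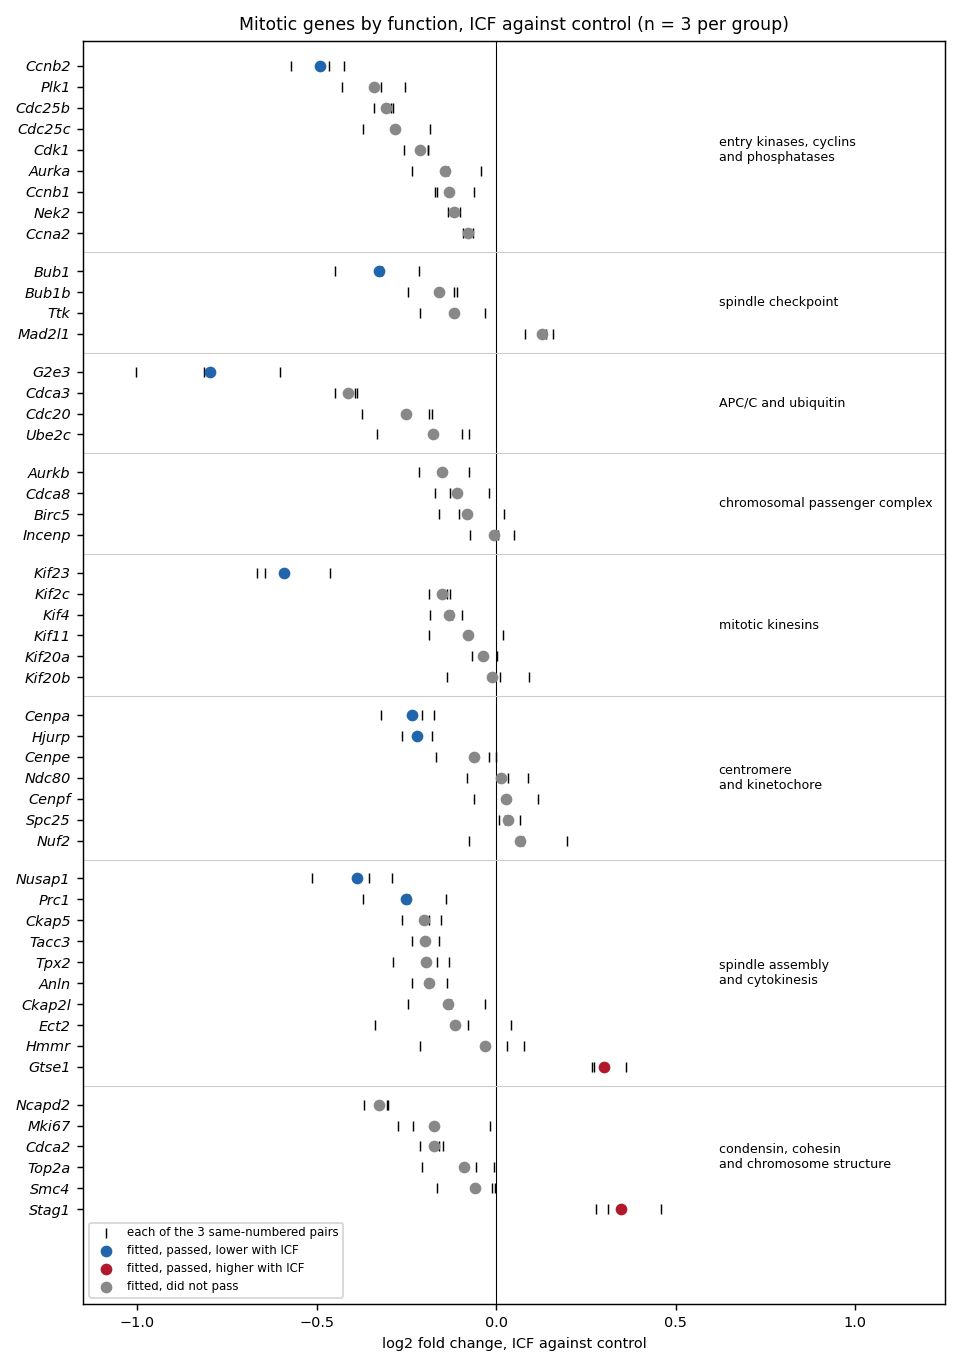
Log2 fold change of ICF against control (horizontal axis) for each of the 50 genes, in blocks by function. Circles are the edgeR fits (blue, passed and lower; red, passed and higher; grey, did not pass) and black ticks the 3 same-numbered pairs; most circles lie left of 0, with G2e3 at -0.80 and Kif23 at -0.59 farthest out.

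Kinases, cyclins and phosphatases of mitotic entry were all lower, 9 of 9, at a median of -0.21 on the log2 scale, and 1 of them passed the test. Ccnb2, which encodes cyclin B2 (ENSMUSG00000032218, chromosome 9 of GRCm38 from 70407692 to 70421547), was at 224, 218 and 183 CPM in the controls and 151, 158 and 136 CPM with ICF. Each ICF sample was below each control sample, as in 15.7% of all genes tested. Replicate 3 was the lowest of its group on both sides. The means were 209 ± 22.3 and 148 ± 11.03 CPM (SD, n = 3), which is -0.49 as a log2 fold change (standard error, SE, 0.11 on the log2 scale; adjusted p = 0.015, and 2.1e-09 with the block). It passed in 3 of the 6 fits that left out a sample, those without control replicate 3, ICF replicate 2 or ICF replicate 3. Cyclin B1, the partner of Cdk1 in the main mitotic kinase, moved less: Ccnb1 was at 309, 303 and 288 CPM against 276, 269 and 276 CPM, a log2 fold change of -0.13 (adjusted p = 0.17, and 0.040 with the block). Its count is uncertain, since 35.2% of the 75-base stretches of its longest transcript also occur in other genes, Ccnb1-ps among them.

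Plk1, the polo-like kinase that acts from entry to cytokinesis, was just outside the threshold at a log2 fold change of -0.34 (adjusted p = 0.053 in edgeR, 3.1e-06 with the block and 0.011 in DESeq2), with 270.1, 268 and 222 CPM in the controls and 200.5, 214 and 186 CPM with ICF. The groups did not overlap, and 15.7% of all genes tested had every ICF sample below every control sample. The kinase itself, Cdk1, had -0.21, the activating phosphatases Cdc25b and Cdc25c -0.31 and -0.28, and the spindle pole kinase Aurka -0.14, none with an adjusted p under 0.05, and all 4 passed with the block (0.0011, 0.00034, 0.0016 and 0.037). Cyclin A2 (Ccna2, -0.08) and the centrosome kinase Nek2 (-0.12) passed in neither test. Ccna2 shares 15.2% of its 75-base stretches with its antisense neighbour Exosc9, and Cdc25c 21.4% with Gm3550.

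Of the 4 spindle checkpoint genes 3 were lower, with Bub1 past the threshold, and Mad2l1 was higher without passing, with or without the block. Differences between these genes were not tested. Bub1, a kinase that recruits checkpoint proteins to the kinetochore (ENSMUSG00000027379, chromosome 2, 127801122 to 127831865), was at 271, 276 and 256 CPM in the controls and 218, 202 and 220.2 CPM with ICF. The groups stood apart, with every ICF sample below every control sample, as in 15.7% of all genes tested. It changed by -0.33 on the log2 scale (SE 0.05, adjusted p = 0.016), and it passed in the fits without control replicate 3 and without ICF replicate 3 but not in the other 4. Bub1b, which encodes the BubR1 inhibitor of the APC/C and had the highest level per kilobase of the group (56.9 CPM per kb of exon), was at 262, 274 and 234 CPM against 242, 231 and 217 CPM. Its ranges overlapped, and its log2 fold change of -0.16 did not pass without the block (adjusted p = 0.22, and 0.015 with the block). Ttk, the kinase upstream of the checkpoint, had -0.12. Mad2l1, which encodes the Mad2 protein that holds Cdc20, was at 165, 164 and 161 CPM in the controls and 185, 180.4 and 171 CPM with ICF, all 3 above the controls. Its log2 fold change of 0.13 did not pass (adjusted p = 0.20, and 0.051 with the block). It did pass in edgeR with both samples numbered 3 left out (adjusted p = 0.025). Of all genes tested, 15.6% had every ICF sample above every control sample.

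The 4 listed genes grouped under the APC/C and ubiquitin transfer had the lowest group median, -0.33 on the log2 scale. They held the member that fell most. The 16 anaphase and APC/C genes outside the list, subunits of the complex among them, had a median of -0.03. G2e3 encodes a ubiquitin ligase named for its expression in G2 (ENSMUSG00000035293, chromosome 12, 51348061 to 51376986). Its level was 178, 184 and 187 CPM in the controls and 101, 91.8 and 123 CPM with ICF. The lowest control was far above the highest ICF sample, and 15.7% of all genes tested had every ICF sample below every control sample. The fall was 0.80 on the log2 scale (SE 0.13, adjusted p = 0.0029), from 183 ± 4.69 to 105 ± 15.96 CPM (SD, n = 3), and it passed in all 6 fits that left out a sample. Cdca3, an adaptor of a ubiquitin ligase that acts on the Cdk1 inhibitor Wee1, was at 225, 211 and 173 CPM against 165, 162 and 132 CPM, a log2 fold change of -0.41 (adjusted p = 0.062 in edgeR, 5.7e-08 with the block and 0.010 in DESeq2 without it). It also passed in 1 of the 6 edgeR fits that left out a sample. Within each pair it was lower by 0.45, 0.39 and 0.39 on the log2 scale, while replicate 3 was low in each group.

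Cdc20, the activator of the APC/C in mitosis, had the highest level per kilobase of all 50 genes, 145 CPM per kb. It was at 321, 302 and 258 CPM in the controls and 248, 266 and 228 CPM with ICF, so that control replicate 3 lay within the ICF range. The change was -0.25 on the log2 scale (SE 0.11, adjusted p = 0.13, and 0.00029 with the block), and without control replicate 3 it passed without the block. Ube2c, the conjugating enzyme of the same complex, ranged from 227 to 331 CPM in the controls and from 212 to 284 CPM with ICF. These ranges overlapped, and its log2 fold change of -0.17 did not pass without the block (adjusted p = 0.49, and 0.013 with the block). Its exons overlap those of the antisense gene Tnnc2 over 22.8% of their length.

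The chromosomal passenger complex, which corrects faulty attachments at the centromere and moves to the central spindle at anaphase, had no member past the threshold without the block. None of its 4 genes passed in edgeR, at an unadjusted p under 0.05 or with DESeq2 (0, 0 and 0), and the group median was -0.10. Of all genes, 4.38%, 13.2% and 3.6% were lower in these tests and 3.47%, 12.4% and 2.95% higher. The DESeq2 shares are of 29735 genes, the others of 16729. Beside these shares 0 of 4 does not set the group apart. Its kinase Aurkb was at 158, 151 and 129 CPM against 136, 136 and 123 CPM, overlapping between groups, with a log2 fold change of -0.15 (adjusted p = 0.30, and 0.025 with the block). Its scaffold Incenp, with the highest level per kilobase of the 4 (57.5 CPM per kb), was at 245, 254 and 248 CPM in the controls and 233, 255 and 257 CPM with ICF. The difference was 0.00 on the log2 scale (SE 0.05), with ICF samples on both sides of the controls. Birc5 (survivin, -0.08) and Cdca8 (borealin, -0.11) lay between.

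Among the mitotic kinesins 1 of 6 stood apart. Kif23, the motor of the centralspindlin complex that bundles the central spindle for cytokinesis (ENSMUSG00000032254, chromosome 9, 61915905 to 61946774), was at 216, 226 and 209.8 CPM in the controls and 138, 142 and 152 CPM with ICF. Of all genes tested, 15.7% had every ICF sample below every control sample. The groups of Kif23 were widely separated, with narrow spread in each. Its change was -0.59 on the log2 scale (SE 0.05, adjusted p = 0.0013), and it passed in all 6 fits that left out a sample, as only G2e3 did besides. The other 5 kinesins had log2 fold changes from -0.15 (Kif2c, which takes microtubules apart at the centromere) to -0.01 (Kif20b). Kif20a, which carries the passenger complex to the central spindle and was the highest of the kinesins per kilobase (69.5 CPM per kb), was at 313, 314 and 288 CPM against 299, 306 and 288 CPM. It hardly differed, at -0.04 (SE 0.05, adjusted p = 0.75), and 29.3% of its exon length overlaps the antisense gene Cdc23. Kif11, the motor that separates the spindle poles, had -0.08 and Kif4, which acts on chromosome arms and the midzone, -0.13. Only Kif2c joined Kif23 with the block (adjusted p = 0.021).

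At the centromere the histone and its loader fell, while the subunits of the outer kinetochore did not pass the test. Cenpa encodes the histone H3 variant that marks the centromere (ENSMUSG00000029177, chromosome 5, 30666777 to 30674830), and was at 246, 233 and 221 CPM in the controls and 197, 202 and 196 CPM with ICF. Hjurp encodes the chaperone that deposits it (ENSMUSG00000044783, chromosome 1, 88262471 to 88277633), and was at 299, 297 and 306 CPM against 264, 255 and 255 CPM. In both genes, picked by the test, every ICF sample was below every control sample, as in 15.7% of all genes tested. The log2 fold changes were -0.23 for Cenpa (SE 0.05, adjusted p = 0.048) and -0.22 for Hjurp (SE 0.02, adjusted p = 0.040). Both calls lie near the threshold: Cenpa passed only without control replicate 3 when a sample was left out, Hjurp in none of those 6 fits, and with a looser filter on low counts both were above the threshold (adjusted p = 0.051 and 0.062).

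Ndc80, Nuf2 and Spc25, which form the Ndc80 complex that grips microtubules, had log2 fold changes of 0.01, 0.07 and 0.03 with SEs of 0.06, 0.06 and 0.04. Their levels ranged from 65.2 to 93.3 CPM in the controls and from 65.5 to 94.9 CPM with ICF. Whether they differ from Cenpa and Hjurp in their response was not tested. The large kinetochore proteins Cenpe (a kinesin) and Cenpf had -0.06 and 0.03, and none of these 5 genes passed with the block.

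Genes of spindle assembly and cytokinesis were lower in 9 of 10 cases, at a median of -0.19 on the log2 scale. Nusap1, which stabilises spindle microtubules (ENSMUSG00000027306, chromosome 2, 119618298 to 119651244), was at 172, 175 and 157 CPM in the controls and 134, 123 and 128 CPM with ICF. Prc1, the crosslinker of antiparallel microtubules in the midzone (ENSMUSG00000038943, chromosome 7, 80294450 to 80316259), was at 226, 240 and 218 CPM against 191, 186 and 198 CPM. Neither gene had overlapping groups, and both were picked by the test. Of all genes tested, 15.7% had every ICF sample below every control sample. The log2 fold changes were -0.39 for Nusap1 (SE 0.06, adjusted p = 0.011) and -0.25 for Prc1 (SE 0.05, adjusted p = 0.041). Nusap1 passed in 4 of the 6 fits that left out a sample, failing without control replicate 1 or 2. Prc1 passed in 2 of them, those without control replicate 3 or ICF replicate 3, and 11.1% of its exon length overlaps the antisense gene Rccd1.

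Another 4 genes of this group missed the threshold in edgeR and passed with the block: Tpx2, the activator of Aurora A (-0.20, adjusted p = 0.080 without and 0.0028 with the block), Ckap5, a microtubule polymerase (-0.20, 0.061 and 0.0019), its partner Tacc3 (-0.20, 0.080 and 0.0023), and Anln, the anillin scaffold of the cleavage furrow (-0.19, 0.077 and 0.0040). In all 4, picked by the blocked test, every ICF sample was below every control sample, which holds for 15.7% of all genes tested. DESeq2 without the block passed Tpx2, Ckap5 and Anln (adjusted p = 0.039, 0.023 and 0.032) and not Tacc3 (0.052). Ect2, which switches on RhoA at the furrow, passed in neither edgeR test: its samples were at 209, 224 and 232 CPM in the controls and 198, 178 and 239 CPM with ICF, with ICF replicate 3 the highest of the 6. Ckap2l (-0.13) and Hmmr (-0.03), both spindle proteins, passed in neither test.

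Gtse1 went the other way within the same group. It encodes a microtubule-binding protein of G2 and S phase that also keeps p53 in the cytoplasm (ENSMUSG00000022385, chromosome 15, 85859745 to 85876573). Its level was 178, 173 and 188 CPM in the controls and 214, 223 and 227 CPM with ICF. Gtse1 had no overlap, as held in this direction for 15.6% of all genes tested. It rose by 0.30 on the log2 scale (SE 0.04, adjusted p = 0.018) and passed in the fits without control replicate 3 and without ICF replicate 3. It had the highest level per kilobase of its group, 73.1 CPM per kb.

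Of the 6 genes of condensin, cohesin and chromosome structure only Stag1 passed in edgeR without the block. Stag1 encodes a subunit of cohesin, the ring that holds sister chromatids together, rather than a protein made mainly for mitosis (ENSMUSG00000037286, chromosome 9, 100597798 to 100959375). It was at 91.3, 102 and 107 CPM in the controls and 126, 123 and 132 CPM with ICF. These groups did not overlap, and 15.6% of all genes tested had every ICF sample above every control sample. The rise was 0.35 on the log2 scale (SE 0.07, adjusted p = 0.023), and it passed when control replicate 3 or ICF replicate 3 was left out. Top2a, the topoisomerase that untangles sister chromatids, had the highest CPM of the 50 genes, at 937, 1031 and 996 in the controls and 934, 893 and 959 with ICF. Its groups overlapped, differing by -0.09 on the log2 scale (SE 0.05, adjusted p = 0.40).

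The condensin subunits Smc4 and Ncapd2 had log2 fold changes of -0.06 and -0.33, a difference that was not tested. Ncapd2 was at 480.0, 468 and 392 CPM against 372, 379 and 318 CPM, lower in each pair by 0.37, 0.31 and 0.30 on the log2 scale, with an adjusted p of 0.075 in edgeR, 2.7e-06 with the block and 0.023 in DESeq2 without it. Mki67, the surfactant of mitotic chromosomes whose product is the proliferation antigen Ki-67, was at 374, 416 and 383 CPM against 369, 344 and 327 CPM (-0.17, adjusted p = 0.15, and 0.0097 with the block). Cdca2, which brings a phosphatase to anaphase chromatin, had the same log2 fold change of -0.17 (adjusted p = 0.083, and 0.0089 with the block).

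**Figure D3:**
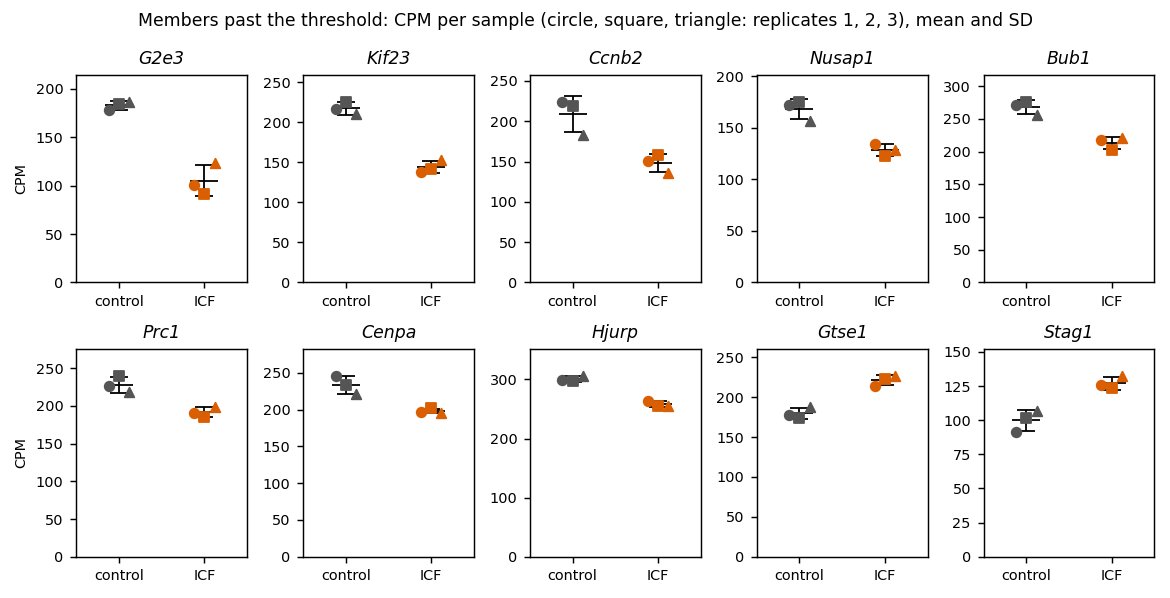
CPM (vertical axis, from 0) of the 10 genes past the threshold in each control (grey) and ICF (orange) sample, with replicates 1, 2 and 3 as circle, square and triangle, and the mean and SD of each group in black. In all 10 genes the groups are separate, most widely in G2e3 and Kif23. The 10 were picked by a test on these same samples, which favours separate groups. Of all genes tested, 15.7% had every ICF sample below every control sample and 15.6% above.

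Per kilobase of exon, the levels of the 50 genes covered a wide range, from 7.07 CPM per kb (Cdc25c) and 9.64 (Stag1) to 103 (Plk1), 104 (Ube2c), 106 (Top2a), 117 (Ccnb2) and 145 (Cdc20). These lengths count every annotated exon, so genes with many isoforms appear lower than they are. The 8 genes that fell ran from Ccnb2, the second highest, down to G2e3 at 18.3 CPM per kb, rank 43 of the 50.

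Replicate 3 departed from the other replicates in the same genes in each group. In control replicate 3, Ube2c was 0.31 below and Kif20b 0.20 above its group mean on the log2 scale, and in ICF replicate 3 the same genes were 0.24 below and 0.22 above. The deviations of the 50 genes in these 2 libraries had a correlation of 0.86 across genes, which are not independent replicates. They ran with base composition: the correlation with the GC content of the longest transcript was -0.63 in control replicate 3 and -0.70 in ICF replicate 3, and that with the log2 of exon length was 0.58 and 0.43. Ube2c and Plk1, with 55.5% and 56.0% GC, were low in each, and Kif20b and Smc4, with 39.4% and 40.2% GC, were high. The log2 fold change between ICF and control, in which the 2 libraries stand on opposite sides, had a correlation of -0.11 with GC content, and of -0.10 with the block. Left out together, with 2 samples against 2 remaining, the median of the members was -0.18, and 31 were lower and 3 higher past the threshold, where 15.6% and 14.6% of all genes were.

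**Figure D4:**
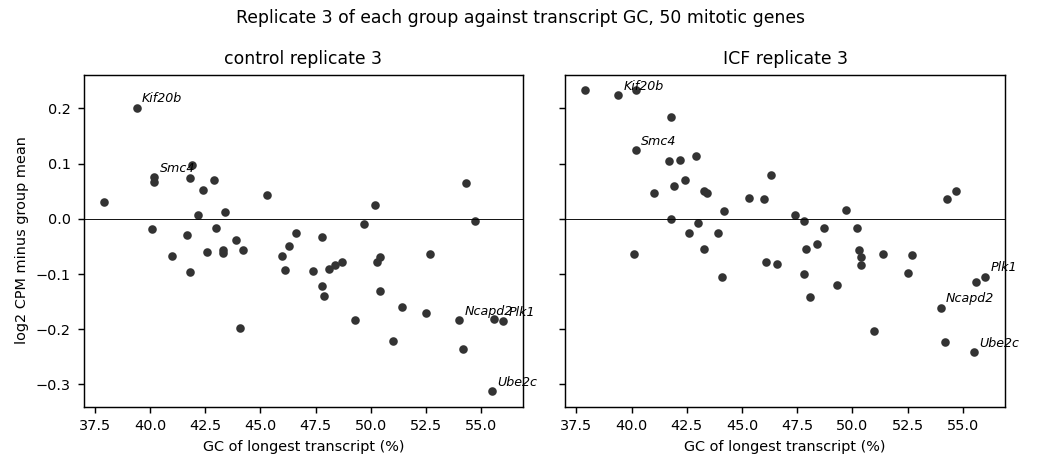
Deviation of replicate 3 from its group mean (log2 CPM, vertical axis) against the GC content of the longest transcript (percent, horizontal axis) for the 50 genes, in the control (left) and with ICF (right); each point is a gene. GC-rich genes such as Ube2c and Plk1 lie below 0 and GC-poor genes such as Kif20b and Smc4 above it in each panel.

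**Figure D5:**
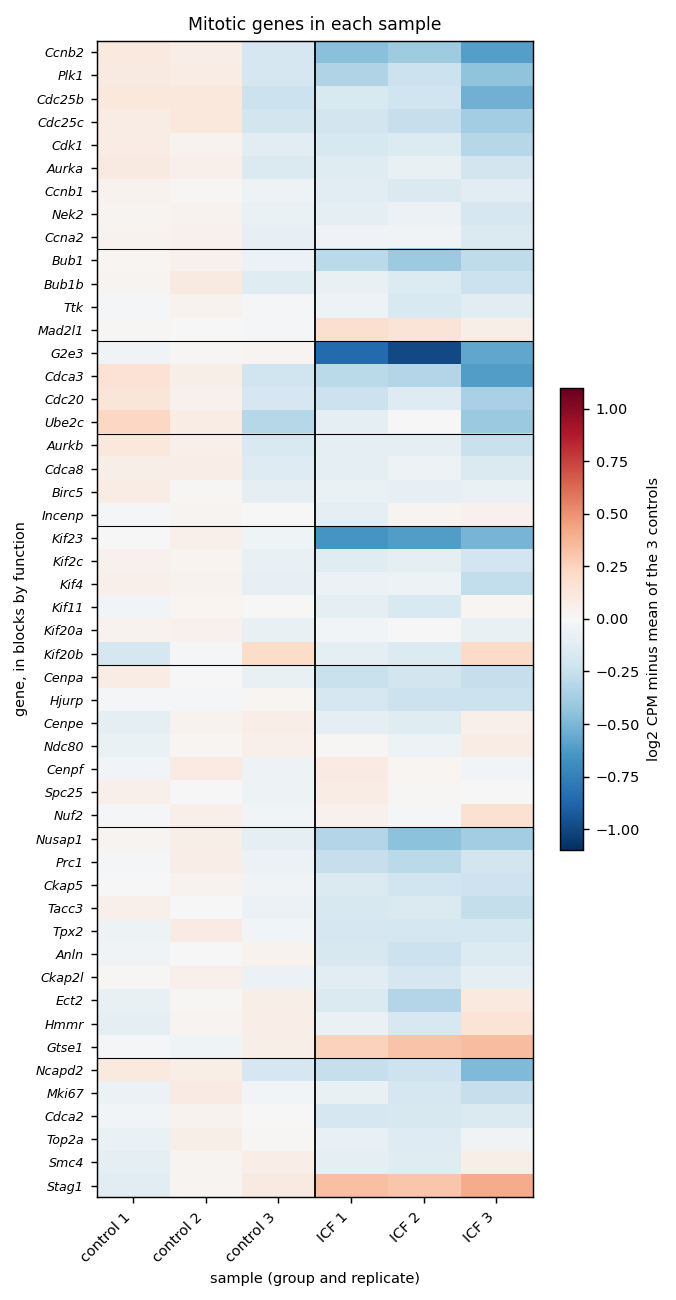
Log2 CPM of each gene (rows, in blocks by function) in each sample (columns), minus the mean of the 3 controls, from blue (lower) to red (higher). The ICF columns are mostly blue, most deeply in G2e3 and Kif23, with Gtse1 and Stag1 red, and Kif20b red in control 3 and ICF 3.

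Beyond the 50 genes, 116 other mitotic genes were examined. Of these, 65 were lower, the median was -0.01 on the log2 scale, 1 passed as lower and 2 as higher, where 4.38% and 3.47% of all genes did, and with the block 17 were lower and 12 higher, near the background of 15.3% and 14.6%. Ncaph2, a subunit of condensin II, fell from 296, 291 and 252 CPM to 212, 216 and 194 CPM, by 0.43 on the log2 scale (adjusted p = 0.013). The kinesin Kif18b rose from 94.2, 96.6 and 89.1 CPM to 107.5, 108 and 113 CPM, by 0.23 (adjusted p = 0.048). Psrc1, a spindle protein, rose from 173, 166 and 182 CPM to 198, 204 and 222 CPM, by 0.26 (adjusted p = 0.047). None of the 3 genes, picked by the test, had overlapping groups. Of all genes tested, 15.7% had every ICF sample below every control sample and 15.6% above. Leaving out control replicate 1 or 2 or ICF replicate 1 left none of the 116 past the threshold (edgeR, with 6, 3 and 7 lower and 8, 6 and 6 higher at an unadjusted p under 0.05). Among 12 regulators of G2/M transcription, 0 passed in edgeR or DESeq2. Of all genes, 4.38% and 3.6% were lower and 3.47% and 2.95% higher, the DESeq2 shares being of 29735 genes. At an unadjusted p under 0.05 in edgeR, 0 were lower and 2 higher, where 13.2% and 12.4% of all genes were. These counts are near the shares of all genes. The activator Foxm1 had a log2 fold change of 0.05 (adjusted p = 0.74). Mybl2, which acts with Foxm1 on promoters that hold the CHR, had 0.20 and did not pass without the block (adjusted p = 0.12, and 0.0015 with the block). The anaphase and APC/C genes outside the list, 16 in number, had a median of -0.03, and 28 further centromere and kinetochore genes a median of 0.00.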

How the data were processed

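RNA sequencing covered 3 ICF and 3 control samples. Strand-specific libraries were read as single 75-cycle reads. The authors filtered reads with Trimmomatic, mapped them with HISAT2, counted them per gene with HTSeq and deposited counts, without normalization. The submitters' processing notes name bcl2fastq 2.19 and the builds GRCm38 and hg38; the other versions, the annotation and the strand setting of the counting are not given in the sources used here. Rows that name no gene (38.1% to 40.3% of each file's total) were left out. Reads that align to several places are among them, which lowers the counts of genes that have close copies.

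GENCODE M21 (GRCm38) named 50462 of the identifiers. The main test was edgeR 4.0.16 in R 4.3.3 (quasi-likelihood, TMM, filterByExpr, no block), with Benjamini-Hochberg adjustment over 16729 genes and a threshold of 0.05. CPM are TMM-normalized. Standard errors come from the SD of log2 CPM between samples, and p-values measure only the spread between these samples. The donor numbers of the labels were taken as pairs in the block, a pairing that the paper does not describe. Across genes, departures from the group mean had correlations of 0.15, 0.20 and 0.38 between control and ICF samples of one number. Between different numbers they ran from -0.343 to 0.263, the highest for control replicate 1 with ICF replicate 2. Only the samples numbered 3 correlated best with each other, so the pairing of numbers 1 and 2 is uncertain. The 14 alternatives include DESeq2 1.42.0, other filters and size factors, the replicate block and left-out samples. The scripts were tested on simulated data. The members, gene lists and motif window were chosen with earlier results of these data known. Genes with values per sample are the members past the threshold and, in each functional group, the member with the highest CPM per kilobase and that with the largest log2 fold change; Ccnb1, Plk1, Mad2l1, Cdca3, Ect2, Ncapd2, Mki67 and the ranges of Ube2c and the Ndc80 complex were added after their values were seen.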

Additional observations from a re-analysis of the deposited data

How the results depend on the processing

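The median log2 fold change of the 50 genes stayed below 0 in all 14 alternatives, from -0.18 to -0.12, moving by less than the SD of 0.0387 between the medians of the 3 pairs. The count of members past the threshold was less steady. Lower with ICF were 8 members by edgeR, 14 by DESeq2, 27 with the replicate block in edgeR and 27 with it in DESeq2. Lower members numbered 9 with the counts of ICF replicate 3 divided by 4, and 31 with both samples numbered 3 left out. Over the 6 fits that each left out a sample they numbered 2 to 13. Higher were 2, 3 with both samples numbered 3 left out, and 0 to 2 over the left-out samples. The fewer samples of the latter fits limit them, and the cause of the other shifts was not tested. Among the 116 other mitotic genes, lower ones numbered 1 in edgeR, 3 with DESeq2, 2 with the looser filter, 17 with the replicate block, 14 with it in DESeq2, 2 with the counts of ICF replicate 3 divided by 4, 20 without both samples numbered 3, and 0 to 3 over the left-out samples. Higher ones numbered 2, 4 with DESeq2, 3 with the looser filter, 1 with RLE size factors, 12 with the block, 7 with it in DESeq2, 12 without both samples numbered 3, and 0 to 3 over the left-out samples. Incenp, at 0.00, changed sign without control replicate 2 (0.00816) and without ICF replicate 1 (0.0436), and ran from -0.0229 to 0.0436 over the left-out samples. The other 15 genes with values chosen by rule kept their direction in all 14 alternatives. No gene past the threshold fell short of it with the replicate block. In ICF replicate 3 the coarse counts limit what small differences can be resolved.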
